A study of Mus musculus with 4 samples.

Results

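RNA-Seq libraries of CD31+CD45- cerebral cells were examined for 45 genes of chromosome segregation: the spindle checkpoint, the mitotic kinases, the kinetochore, the mitotic kinesins, the cytokinesis factors, condensin I, and the separase, securin and FoxM1 genes. The members were chosen by name from this machinery, with earlier results of these data known, and all 45 were found among the 24873 genes of the table. Cells came from Cdh5cre;Mgpflox/flox mice, in which a tamoxifen-activated Cre recombinase expressed from the endothelial VE-cadherin (Cdh5) promoter removes Mgp, the gene for matrix Gla protein, an inhibitor of bone morphogenetic proteins. The control group (No Tamoxifen) and the tamoxifen group carried the same alleles, so that tamoxifen and the recombination that it starts were the stated difference. By the study's methods, tamoxifen was given at 10 weeks of age for 5 days at 75 mg/kg daily, the cells were collected on day 9, and each of the 2 libraries per group held cells pooled from 3 mice. The control mice received no tamoxifen, so an effect of the drug itself cannot be told apart from that of the deletion. The sample labels name the cells Brain tdTomato+, and a tdTomato reporter is named in neither the genotype nor the methods.

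In a dividing cell the duplicated chromosomes are compacted by condensin and attached by their kinetochores, the protein plates built on centromeres, to the microtubules of the spindle. The spindle checkpoint holds the cell until all chromosomes are attached, whereupon Cdc20 activates the anaphase-promoting complex, securin is destroyed, separase cuts cohesin, and kinesins and the central spindle drive the chromosomes and then the daughter cells apart. Most genes of this machinery are transcribed late in the cell cycle, through the MuvB complex with B-Myb and FoxM1 at CHR (cell cycle genes homology region) and CCAAT promoter elements, and they are little transcribed in resting cells. Adult brain endothelium is mostly resting.

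Values are counts that the authors divided by a factor per library, called normalized counts here. Whole reads on genes numbered 35387438 to 49799321 per library, and 3 reads were worth 2.16 to 4.11 normalized counts, taken as the floor below which a gene was not told from absent. The deposited columns carry the letters C and A, read here as control and tamoxifen, which rests on the letters and their numbers. Mgp, the deleted gene, had 1094 and 1352 normalized counts in the control group against 945 and 909 after tamoxifen (log2 difference -0.39 ± 0.182 (SE), limma adjusted p = 0.0986). The tamoxifen libraries were lower, yet the difference did not pass the test, and it turned to 0.079 when the libraries were rescaled to equal totals. Pecam1, which encodes the CD31 used for sorting, fell from 83681 and 88796 to 15987 and 8973 (log2 fold change -2.85 ± 0.306, limma adjusted p = 0.000181). Ptprc, which encodes CD45, the leukocyte marker sorted against, rose from 50.7 and 83.9 to 1423 and 1119 (4.25 ± 0.326, limma adjusted p = 4.99e-05).

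Of the 45 mitotic genes, 43 were called higher in the tamoxifen libraries, 0 were called lower and 2, Bub3 and Pttg1, did not pass. A gene was called when its limma adjusted p was under 0.05 and its log2 fold change exceeded 1 in size, the cut-offs of the study. All 45 passed the filter of a mean of 10 normalized counts over the 4 libraries, Cenph and Cenpk only through the tamoxifen libraries, so that these 2 had to differ to be tested. Of all 20485 genes tested, 28.6% were called higher and 16% lower, and 43.1% had both tamoxifen libraries above both control libraries (39.2% below), which the same 43 members had too. The number of all genes called higher fell from 5867 to 3030 without tamoxifen library 1 and to 2553 without tamoxifen library 2, and the members called were then 42 and 43. edgeR's quasi-likelihood test and DESeq2 on the recovered reads each called 43 members higher, against 28.6% and 27.8% of all genes. In bulk libraries, more dividing cells and more mRNA per cell cannot be told apart.

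The median log2 fold change of the 45 members was 5.33, against 0.05 over all genes tested, and 24 members exceeded 5 on the log2 scale, as did 5.03% of all genes. The standard errors of the members, which limma draws in part from the variance of all genes, lay between 0.153 and 0.574. The smallest adjusted p of a called member was 3.04e-06 and the largest 0.000989 (limma). In sum, the members took 19772 and 20713 normalized counts without tamoxifen against 244747 and 232262 with it. As a share of all normalized counts, these were 0.0385% and 0.0403% against 0.638% and 0.649%. The groups did not overlap, with a log2 difference of 3.56 in the sum (exact permutation test, two-sided, p = 0.333, the smallest that 2 libraries against 2 can give). Markers of the endothelial cells sorted for and of other kinds of cells also differed between the groups. Of 12 endothelial markers, 12 had both tamoxifen libraries below both control libraries, as had 39.2% of all genes tested. Their summed level was 107761 to 213056 after tamoxifen against 1202540 to 1226830 normalized counts in controls. Of 10 pluripotency markers, 10 were higher (45222 to 58195 against 108 to 170.2), where 43.1% of all genes had both tamoxifen libraries above. Of 10 neutrophil-precursor markers, 10 were higher as well (83477 to 112202 against 234 to 304). Nanog, Sall4, Lin28a, Zfp42 and Utf1 passed the filter only through the tamoxifen libraries, as did Mpo, Elane, Prtn3, Ctsg and Fcnb. They are named for this reason after their values were seen, and the counts of these lists are no support for a difference. Whether cells of these kinds were in the libraries, and their part in the mitotic values, was not tested.

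**Figure D1:**
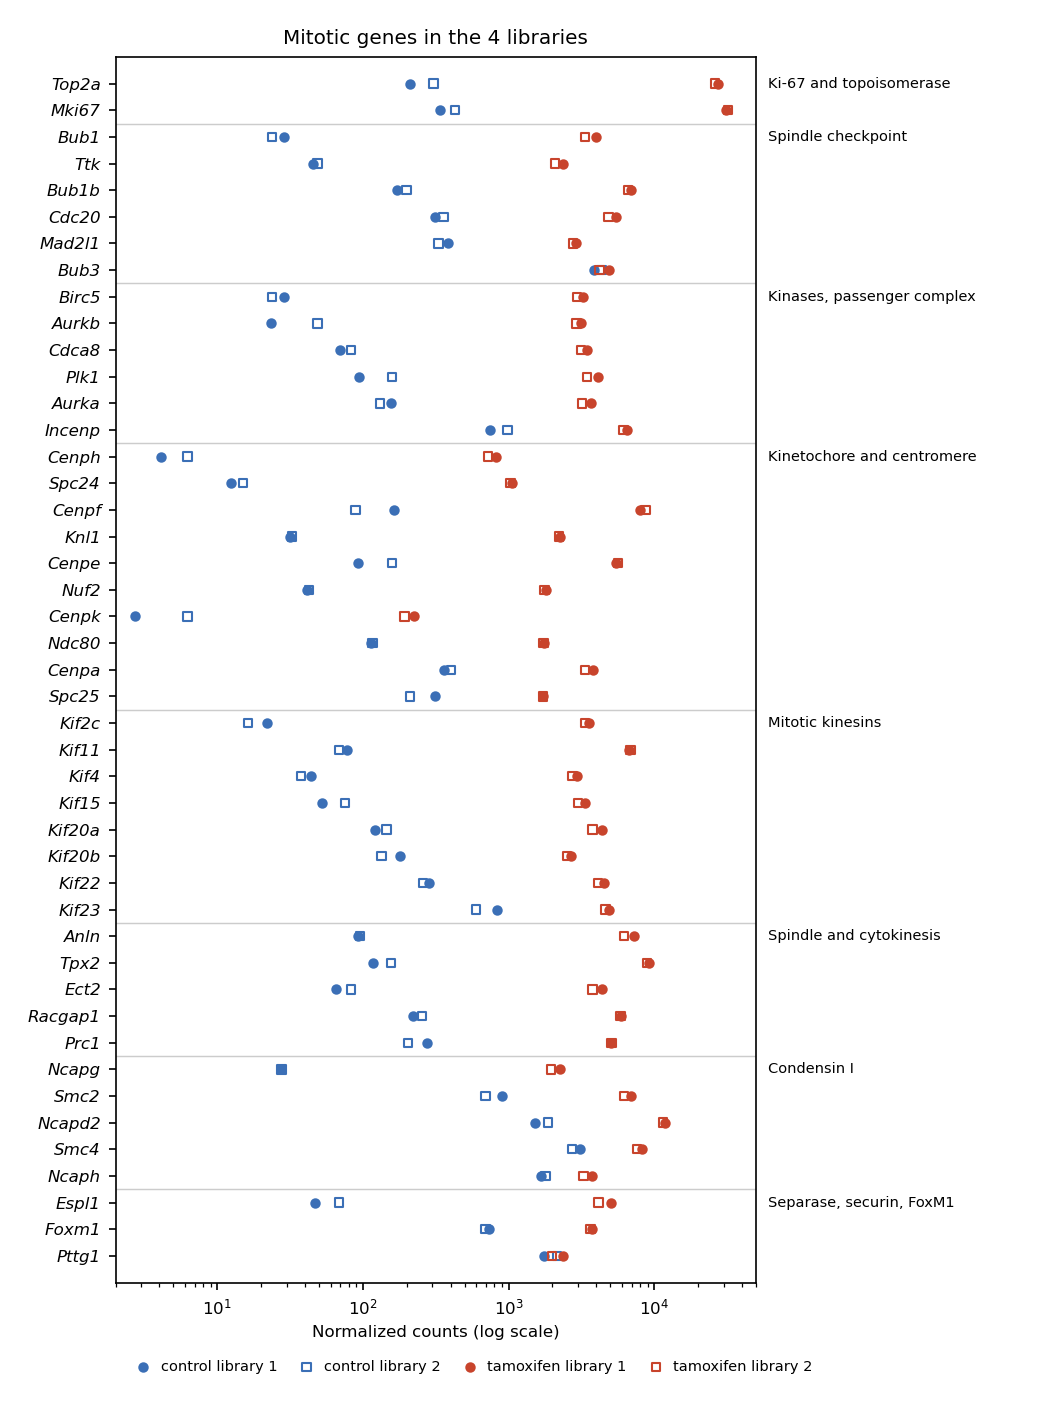
Normalized counts (x axis, log scale) of the 45 mitotic genes in each control (blue) and tamoxifen (red) library, grouped by role and ordered within a role by fold change; filled circles are library 1 and open squares library 2. For 43 genes the red points lie to the right of the blue ones, and for Bub3 and Pttg1 they overlap.

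The CHR and CCAAT elements named above were sought as strings of letters in GRCm39, the genome build of the deposited data. The window ran from 250 bases before to 50 bases after the start of each gene's canonical GENCODE transcript, on both strands. The CHR core TTTGAA was found in 24 of 45 members (53.3%) and in 17.1% of the promoters of all protein-coding genes, CCAAT in 29 of 45 (64.4%) and 39.9%, and both together in 18 of 45 (40%) and 7.45%. The E2F sites TTGGCGC or TTCCCGC were found in 4 of 45 (8.89%) and in 8.13% of all promoters. Among the promoters of genes tested, the shares were 14.0% for TTTGAA, 39.1% for CCAAT, 5.82% for both and 10.3% for the E2F sites. ATTGG, the reverse complement of CCAAT, can share its last 4 letters with the first E2F site. Of the 32 TTTGAA matches in member promoters, 23 lay within 50 bases of the start. A match is a string of letters and not a shown binding site. The sequences below are given 5′ to 3′ on the strand of the gene, with CHR and CCAAT matches in either orientation in capitals (the reverse of the CHR core reads TTCAAA). They are shown because they hold members with large folds (Bub1, Aurkb, Ect2), a member with a small fold (Kif23) and a member that was not called (Bub3). For Bub1 (minus strand, chr2:127673807-127673956), Aurkb (plus strand, chr11:68936317-68936466) and Ect2 (minus strand, chr3:27208030-27208179) the 150 bases before the start are printed. For Kif23 (minus strand, chr9:61854074-61854103) and Bub3 (plus strand, chr7:131162047-131162076) a stretch of 30 bases around the matches is printed.
Bub1: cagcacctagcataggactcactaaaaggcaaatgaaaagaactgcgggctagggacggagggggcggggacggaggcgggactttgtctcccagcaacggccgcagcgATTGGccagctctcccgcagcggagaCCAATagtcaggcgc
Aurkb: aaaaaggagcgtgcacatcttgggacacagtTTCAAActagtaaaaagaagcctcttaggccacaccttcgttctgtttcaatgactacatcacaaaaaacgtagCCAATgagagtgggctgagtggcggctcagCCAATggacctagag
Ect2: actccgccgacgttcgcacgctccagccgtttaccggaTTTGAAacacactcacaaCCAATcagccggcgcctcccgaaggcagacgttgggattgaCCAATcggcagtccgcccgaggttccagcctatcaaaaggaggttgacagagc
Kif23: cgcaggcggccgctgATTGGcctgTTTGAA
Bub3: ccgttggcgTTCAAAatcagCCAATgatag

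Bub3, which was not called, had a CHR core and CCAAT within 30 bases of each other, and Bub1, with a large fold, had CCAAT in both orientations and no CHR core in the window searched. The median log2 fold change was 4.77 over the 24 members with TTTGAA and 5.51 over the 21 members that lacked it, a description only.

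Mki67 and Top2a, the standard marks of cycling cells, rose. Mki67 encodes Ki-67, which coats mitotic chromosomes, and Top2a encodes the topoisomerase that untangles sister DNA. Mki67 had 339.7 and 431 normalized counts in the control and 31066 and 32223 in the tamoxifen libraries (log2 fold change 6.37 ± 0.169 (SE), limma adjusted p = 3.04e-06). Top2a had 211 and 305 and 27219.5 and 26135 in the same order (6.71 ± 0.199, limma adjusted p = 3.09e-06). Both control libraries were low and both tamoxifen libraries high for each gene, with the tamoxifen libraries within 1.09-fold of each other.

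Among the 6 checkpoint genes, 5 rose and Bub3 did not pass, so that partners within 1 complex had unequal folds. Bub1, the kinase that brings checkpoint proteins to kinetochores, had 28.8 and 23.8 normalized counts in the control and 3955 and 3353 in the tamoxifen libraries (7.07 ± 0.263 on the log2 scale, limma adjusted p = 4.16e-06). Ttk, the Mps1 kinase that starts the checkpoint signal, went from 45.2 and 48.8 to 2382 and 2091 (5.54 ± 0.249), and Bub1b, which encodes BubR1 of the mitotic checkpoint complex, from 171 and 199 to 6983 and 6602 (5.19 ± 0.172). Both groups were well apart for these kinases. Cdc20, the activator that the checkpoint restrains, rose by 3.94 on the log2 scale from 312 and 358, and Mad2l1, whose product Mad2 binds Cdc20, rose by 2.99 from 382 and 330.4 normalized counts. Bub3, the adaptor that carries Bub1 and BubR1 to the kinetochore had 3887 and 4348 in the control and 4904 and 4219.9 in the tamoxifen libraries (0.15 ± 0.161, limma adjusted p = 0.457). The libraries of the groups overlapped for Bub3, and its log2 difference was 0.62 and still not called with equal totals. Copies of at least 90% identity over more than 450 bases exist for Bub3 (Gm19183), Mad2l1 (Gm18948) and Cdc20 (Gm7856), so reads of these 3 genes may be split. Gm7856 had only 0 and 1.25 normalized counts in the control and 6.50 and 3.59 in the tamoxifen libraries. Gm19183 and Gm18948 had no values.

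The ratio of Bub1 to Bub3 reads within a library, which does not depend on the library's factor, was 0.00740 and 0.00547 in the control group and 0.806 and 0.795 after tamoxifen. Transcript length cancels in its change between groups, which was 6.98 on the log2 scale (control mean -7.30 ± 0.308, tamoxifen mean -0.32 ± 0.0151, SD, n = 2 each). The exact permutation p was 0.333, the smallest that the design allows.

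All 6 genes of the mitotic kinases and the chromosomal passenger complex rose. Plk1 and Aurka encode the kinases that mature centrosomes and build the spindle. Plk1 had 94.5 and 158 normalized counts in the control and 4083 and 3438 in the tamoxifen libraries (4.93 ± 0.271, limma adjusted p = 1.28e-05), and Aurka 155 and 131 and 3674 and 3201 (4.58 ± 0.20). Control library 2 exceeded control library 1 for Plk1 and was below it for Aurka, and the tamoxifen libraries were far above both. The passenger complex, which corrects faulty attachments, consists of the kinase Aurora B (Aurkb), survivin (Birc5), borealin (Cdca8) and the scaffold Incenp. Aurkb went from 23.3 and 48.8 to 3121 and 2925 (6.44 ± 0.361), Birc5 from 28.8 and 23.8 to 3268 and 2945 (6.84 ± 0.266) and Cdca8 from 69.9 and 82.6 to 3441 and 3137 (5.42 ± 0.218). Incenp was already at 749 and 983 in the control libraries and reached 6472 and 6143 (2.88 ± 0.178, limma adjusted p = 2.04e-05). Its fold was the smallest of the 6, and the log2 ratio of Aurkb to Incenp reads changed by 3.61 between the groups, from -4.67 ± 0.479 to -1.06 ± 0.0129 (SD, n = 2 each, exact permutation p = 0.333). Plk1 has a pseudogene of 93.5% identity, Plk-ps1, which had 23.8 to 35.6 normalized counts in the 4 libraries. Aurka shares 984 exon bases (25.2%) with Fam210b and 293 (7.50%) with Cstf1, both on the opposite strand. Fam210b had 2474 and 2804 normalized counts in the control and 2101 and 2323 in the tamoxifen libraries. The strand limit given below for Spc25 holds for Aurka too.

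All 10 kinetochore and centromere genes rose, with a median log2 fold change of 5.45. The NDC80 complex, the rod that grips the microtubule, is made of Ndc80, Nuf2, Spc24 and Spc25. Nuf2 had 41.1 and 42.6 normalized counts in the control and 1814 and 1765 in the tamoxifen libraries (5.39 ± 0.26), Spc24 12.3 and 15.0 and 1056 and 1033 (6.16 ± 0.364), and Ndc80 114 and 116 and 1760.1 and 1733 (3.91 ± 0.215). Spc25 stood apart in its control level, with 312 and 212 in the control and 1731 and 1728 in the tamoxifen libraries (2.75 ± 0.235, limma adjusted p = 7.64e-05). Of its annotated exon bases, 3693 (52.5%) overlap exons of Nostrin, an endothelial gene on the opposite strand, which had 15826 and 13748 normalized counts in the control and 2995 and 1508 in the tamoxifen libraries. The library kit keeps strand, the strand setting of the counting was not given in the sources used here, and the share of Nostrin reads in the Spc25 values was not tested. Ndc80 has a copy of 92.7% identity over 763 bases, 2700099C18Rik. This copy had 2.74 and 0 normalized counts in the control and 17.3 and 18.7 in the tamoxifen libraries.

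Per kilobase of canonical transcript, the members of the NDC80 complex had unequal levels in the control libraries and close ones after tamoxifen. The highest of the 4 levels exceeded the lowest 25.6-fold and 14.2-fold in the control group, and 1.77-fold and 1.82-fold after tamoxifen. Without Spc25 these were 5.79 and 4.87 against 1.12 and 1.13. The narrowing is a description of 2 libraries per group. With the union of annotated exons as the length, chosen after the data were seen, the 4 values were 10.002 and 5.56 against 1.54 and 1.51. Without Spc25 the same length gave 3.71 and 3.12 against 1.49 and 1.48, so the near-equal levels of these genes after tamoxifen depended on the length used.

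Cenpe, the motor that carries chromosomes to the spindle equator, and Cenpf, a large protein of the outer kinetochore, were each higher in both tamoxifen libraries. Cenpe went from 91.8 and 159 to 5485 and 5622 (5.51 ± 0.267) and Cenpf from 164 and 88.9 to 7960.5 and 8693 (6.09 ± 0.282). For both, the control libraries differed from each other by less than 2.05-fold and lay far below the tamoxifen libraries. Knl1, the scaffold on which Bub1 docks, had 31.5 and 32.5 and 2250.0 and 2221 (6.08 ± 0.262). Cenpa, the histone H3 variant that marks centromeres, had 363 and 402 and 3778 and 3364 (3.22 ± 0.170).

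Cenph and Cenpk, subunits of the inner kinetochore network on CENP-A chromatin, were close to the floor in the control libraries. Cenph had 4.11 and 6.26 normalized counts in the control and 825 and 725 in the tamoxifen libraries (6.99 ± 0.457, limma adjusted p = 2.67e-05). Cenpk had 2.74 and 6.26 and 224 and 193 (5.33 ± 0.574, limma adjusted p = 0.000182), with 2 and 5 reads behind the control values and the widest standard error of all members. The fold of Cenpk depended on the added count and the scaling, and ranged from 3.90 to 5.81 over the alternatives, above the cut-off in each.

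**Figure D2:**
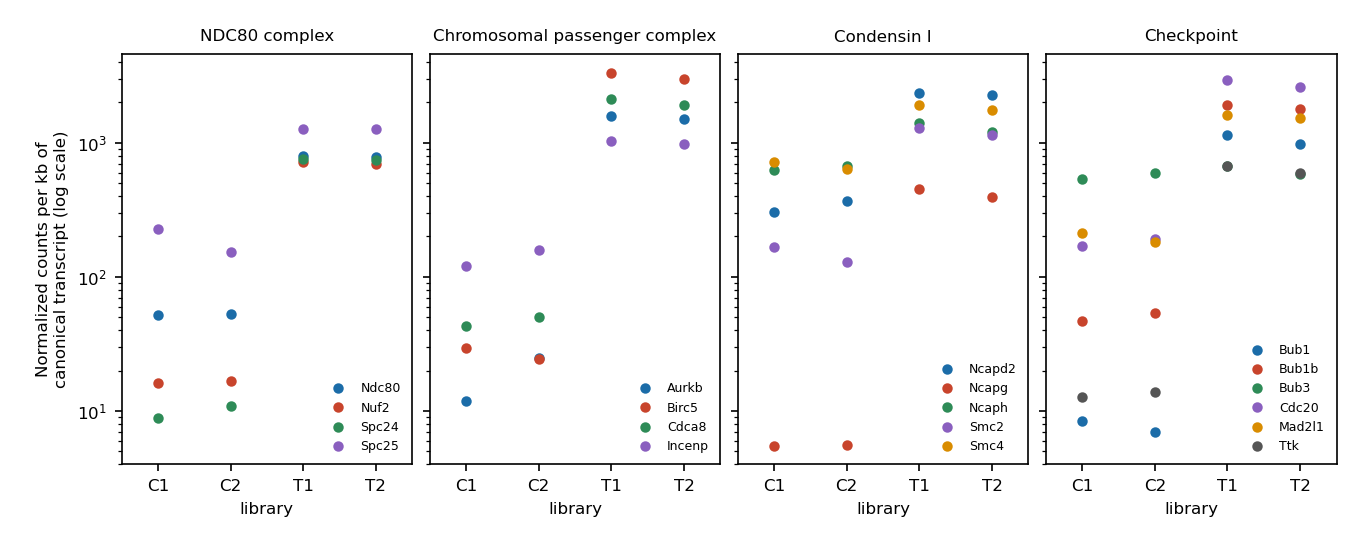
Normalized counts per kilobase of canonical transcript (y axis, log scale) in control (C1, C2) and tamoxifen (T1, T2) libraries for the subunits of 3 complexes and for the checkpoint genes, 1 point per gene and library. Subunit levels are spread apart in the control libraries, for example 130.5-fold in condensin I in control library 1, and lie closer together in the tamoxifen libraries (5.21-fold in tamoxifen library 1).

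The 8 mitotic kinesins all rose, and Kif2c, which encodes the microtubule-depolymerizing MCAK that frees wrong attachments, had the largest log2 fold change of the 45 members. Kif2c had 21.9 and 16.3 normalized counts in the control and 3562 and 3362 in the tamoxifen libraries (7.44 ± 0.286, limma adjusted p = 4.36e-06). Its processed copy Gm4961 was at 0 in both control libraries and at 55.3 and 41.7 after tamoxifen. Kif11, the motor that pushes the spindle poles apart, went from 78.1 and 68.8 to 6669 and 6879.9 (6.51 ± 0.189), and Kif15, which can share that task, from 52.0 and 75.1 to 3372 and 3006 (5.65 ± 0.256). All of these were low in both control libraries and high in both tamoxifen libraries. The chromosome-arm motors Kif4 and Kif22 rose by 6.09 and 3.99 on the log2 scale, from 43.8 and 37.5 and from 282 and 259 normalized counts. Exons on the opposite strand overlap 11.1% of the exon bases of Kif4 (Pdzd11) and 18.0% of those of Kif22 (Gm31749).

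The kinesins of the central spindle and midbody, Kif20a, Kif20b and Kif23, rose by 4.92, 4.06 and 2.76 on the log2 scale. Kif23, the motor subunit of centralspindlin, had 834 and 596 in the control and 4905 and 4639 in the tamoxifen libraries (2.76 ± 0.195, limma adjusted p = 3.74e-05), the highest control level per kilobase and the smallest fold of the 8. Its partner in centralspindlin, Racgap1, went from 222 and 254 to 5877 and 5871 (4.62 ± 0.167). Exons of Kif20a overlap those of Cdc23 on the opposite strand over 2748 bases (54.8%), with Cdc23 at 3735 to 5132 normalized counts in the 4 libraries, so the strand limit given for Spc25 holds for Kif20a too.

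Of 22 other kinesins and light chains, grouped here under the name transport kinesins, 7 rose, 3 fell and 12 were not called, with a median of 0.04. The 7 were 31.8% of the list, near the 28.6% of all genes called higher. Kif21b (4.86), Kif26b (4.59), Kif21a (3.997) and Kif1a (2.46), named after their values were seen, had the largest log2 fold changes of the 7. The most abundant were Kif1c, a vesicle motor, at 21824 and 25705 in the control and 9531 and 7053 in the tamoxifen libraries (-1.53 ± 0.214), Kif1b at 16259 and 14193 and 11462 and 16695 (-0.14 ± 0.228), and Kif5b, the conventional kinesin, at 13689 and 12146 and 9389 and 7904 (-0.58 ± 0.180). Kif1c fell, although it did not pass with quantile normalization (-0.92). Kif1b, whose sign turned to 0.34 with equal totals, and Kif5b were not called. Kif26a (-2.60) and Klc1 (-1.30) fell as well, although Klc1 did not pass with equal totals (-0.83) or quantile normalization (-0.82). The summed mitotic kinesins changed by 4.92 on the log2 scale relative to the summed transport kinesins of the same library, from -6.19 ± 0.195 to -1.27 ± 0.170 (SD, n = 2 each, exact permutation p = 0.333).

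All 5 genes of spindle assembly and cytokinesis rose, by between 4.41 and 6.13 on the log2 scale. Tpx2, the protein that activates Aurora A on the spindle, had 116 and 155 normalized counts in the control and 9242 and 8958 in the tamoxifen libraries (6.07 ± 0.194, limma adjusted p = 3.30e-06). Anln, which encodes the actin-binding anillin of the cleavage furrow, went from 93.1 and 95.1 to 7230.0 and 6178 (6.13 ± 0.186), and Ect2, the exchange factor that activates RhoA there, from 65.7 and 82.6 to 4355 and 3774 (5.76 ± 0.223). The groups did not overlap for any of these. Prc1, which bundles the microtubules of the central spindle, had 274 and 204 and 5029.9 and 5082 (4.41 ± 0.195). The 1092 exon bases that Prc1 shares with Rccd1 on the opposite strand are 11.8% of its exon bases.

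Condensin I had the lowest fold of the groups of 5 or more members, with a median log2 fold change of 2.79. Its subunits are the ATPases Smc2 and Smc4, which also serve condensin II, and the regulatory subunits Ncapd2, Ncapg and Ncaph. Ncapg was at 27.4 and 27.5 normalized counts in the control and 2256 and 1966 in the tamoxifen libraries (6.21 ± 0.277, limma adjusted p = 6.66e-06). Ncaph, the kleisin that closes the ring, was at 1678 and 1796 and 3769 and 3267 (1.01 ± 0.156, limma adjusted p = 0.000989). Thus Ncaph was far above the floor in the control libraries and close to the cut-off of 1 in its fold. It was the 1 member that lost its call, with a log2 fold change of 0.97 without control library 1 and 0.91 without tamoxifen library 1. Smc4 had 3096 and 2739.7 and 8229 and 7606 (1.44 ± 0.155, limma adjusted p = 0.000182), Smc2 896 and 695 and 6905 and 6209.8 (3.05 ± 0.178), and Ncapd2 1529 and 1859.9 and 11887 and 11461 (2.79 ± 0.163). Both tamoxifen libraries were above both control libraries for all 5 subunits. Ncapg shares 2118 exon bases (25.0%) with Lcorl on the opposite strand.

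Per kilobase of transcript, the highest condensin I subunit exceeded the lowest, Ncapg, 130.5-fold and 120.7-fold in the control group and 5.21-fold and 5.76-fold after tamoxifen. Among the 3 regulatory subunits of condensin II, which compacts chromosomes earlier in mitosis, Ncapg2 rose from 199.98 and 171 to 2845 and 2364 (3.80 ± 0.205), while Ncapd3 (0.84 ± 0.152) and Ncaph2 (0.47 ± 0.170) were not called. The 1 called gene was 33.3% of the 3, near the 28.6% of all genes called higher, and with equal totals 2 of the 3 were called. In both condensins the subunit with the largest fold was the HEAT-repeat subunit of the G type, a description of 2 genes. The ratio of the summed regulatory subunits of condensin I to those of condensin II changed by 1.41 on the log2 scale, from -0.80 ± 0.0514 to 0.60 ± 0.0816 (SD, n = 2 each, exact permutation p = 0.333).

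Separase and securin, the pair that sets off anaphase, likewise had unequal folds. Espl1, the gene of the protease separase, had 46.6 and 68.8 normalized counts in the control and 5013 and 4144 in the tamoxifen libraries (6.31 ± 0.259, limma adjusted p = 5.53e-06). Pttg1, the gene of its inhibitor securin, had 1746 and 2158 and 2353 and 1983 (0.15 ± 0.178, limma adjusted p = 0.480). For Pttg1 the libraries of the groups overlapped, and its control level per kilobase was the highest of the 45 members (2292 and 2832 normalized counts per kilobase). Foxm1, the forkhead factor that activates many of the other members, had 736 and 695 and 3738 and 3647 (2.37 ± 0.153, limma adjusted p = 2.49e-05), the smallest standard error of all members, and its groups did not overlap.

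Levels per kilobase showed how the 45 members were spread. Their log2 levels had an SD of 2.34 and 2.26 over genes in the control group and of 1.03 and 1.04 after tamoxifen. The 5 members with over 1000 normalized counts in the control mean were Bub3, Smc4, Ncapd2, Pttg1 and Ncaph, and 18 members had under 100. After tamoxifen, 43 of 45 exceeded 1000. The log2 levels per kilobase of control and tamoxifen had a Pearson r of 0.58 and a Spearman rho of 0.598 over the 45 genes, which share the 4 libraries and are not independent replicates.

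Related lists are given by their counts and medians, to be read beside the 28.6% of all genes called higher and 16% called lower. Of 30 other genes of the spindle and of entry into mitosis, 30 rose, with a median log2 fold change of 6.12. The most abundant were Ckap5, which feeds tubulin to microtubule ends, at 5153 and 4795 and 10622 and 12463 (1.21 ± 0.166), Ccna2, cyclin A2, at 82.2 and 120.2 and 6627 and 6219.9 (5.999 ± 0.226), and Cdk1, the kinase that drives mitosis, at 399 and 359 and 6355 and 5319 (3.94 ± 0.171). All 3 rose. Of 34 other kinetochore genes, 24 rose, 1 fell and 9 were not called (median 2.79), and the called genes numbered 15 instead of 25 without tamoxifen library 1. Ska1 and Sgo1, named after their values were seen, passed the filter only through the tamoxifen libraries. Cenpb, which binds the centromeric repeat, fell from 9585 and 13128 to 5062 and 4326 (-1.26 ± 0.20), but it did not pass with equal totals (-0.79), with quantile normalization (-0.80) or without either tamoxifen library. Hjurp, the CENP-A chaperone (0.16 ± 0.161), and Zwint, a partner of Knl1 (0.74 ± 0.145), were not called.

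Of 12 genes of cohesin, the ring that holds sister chromatids together, and its regulators, 1 rose, 0 fell and 11 were not called, with a median of -0.19. That was 8.33% of the list called higher, against 28.6% of all genes. The 1 was Esco2, an acetyltransferase of cohesin in S phase, named after its values were seen (26.0 and 22.5 to 2240.2 and 1779, 6.31 ± 0.299). The most abundant, Nipbl (-0.69), Rad21 (0.74) and Smc1a (-0.23, which turned to 0.24 with equal totals), were not called, and 2 genes were called without control library 2. Of 18 genes of the anaphase-promoting complex and its regulators, 5 rose (27.8%, near the share of all genes), 1 fell and 12 were not called (median 0.05), and 2 were called without tamoxifen library 1 or 2. Anapc16 fell (-1.12 ± 0.165), although it did not pass with equal totals (-0.65), without control library 2 or without either tamoxifen library. The core subunits Anapc5 (-0.43), Anapc1 (-0.02) and Anapc2 (-0.70) were not called, and the signs of Anapc5 and Anapc1 turned with equal totals (0.044 and 0.45). Of the 5 that rose, Ube2c, the ubiquitin-conjugating enzyme of the complex, again named after its values were seen, went from 60.3 and 60.1 to 5896 and 5068 (6.48 ± 0.204).

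Of 12 genes of the MuvB, E2F and pocket-protein complexes, which control the members' promoters, 3 rose (25%, near the share of all genes), 0 fell and 9 were not called, with a median of 0.46. Mybl2, which encodes B-Myb, went from 188 and 154 to 6894 and 5506 (5.17 ± 0.199). Tfdp1, the partner of E2F factors, rose by 1.95 and Lin9, a MuvB subunit, by 1.03 on the log2 scale. These were the 3 called genes, and the last 2 were named after their values were seen. Lin9 lost its call without control library 1 and without either tamoxifen library, leaving 2 called. The most abundant besides Mybl2, the histone chaperone Rbbp4 (0.58 ± 0.167) and Tfdp2 (0.55 ± 0.159), were not called, and 6 of the 12 were called with equal totals.

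DNA replication genes rose too, with a smaller median. Of 18, 18 rose, against 28.6% of all genes, with a median log2 fold change of 3.34. The most abundant were Mcm6 and Mcm7 of the replicative helicase and Rrm1 of ribonucleotide reductase, at 1.71 ± 0.160, 3.30 ± 0.159 and 2.22 ± 0.159. The ratio of the summed members to the summed replication genes of a library was 1.53 and 1.41 in the control group and 2.45 and 2.77 after tamoxifen, a log2 change of 0.83 (exact permutation p = 0.333). The ratio was above the control values in both tamoxifen libraries.

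Meiotic counterparts of the members and of cohesin, which dividing somatic cells scarcely express, were also measured. Of 12 listed, 10 were in the table and were called higher, with 5 called without either tamoxifen library. Of these 10, Sycp1, Sycp2, Sycp3, Hormad1 and Spo11, named for this reason after their values were seen, passed the filter only through the tamoxifen libraries, so the count of 10 is no support for a difference. Stag3, a meiotic cohesin subunit, went from 12.3 and 21.3 to 1379.7 and 1111 (6.17 ± 0.393), Smc1b from 13.7 and 15.0 to 459.5 and 451 (4.89 ± 0.411) and Rec8, the meiotic kleisin, from 45.2 and 53.8 to 386 and 223 (2.55 ± 0.417). Both tamoxifen libraries were above both control libraries for these 3. In the control libraries 4 of the 10 were at or under the floor of 3 reads. In sum, the 10 genes had 118 and 126 normalized counts in the control and 2911 and 2430 in the tamoxifen libraries.

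**Figure D3:**
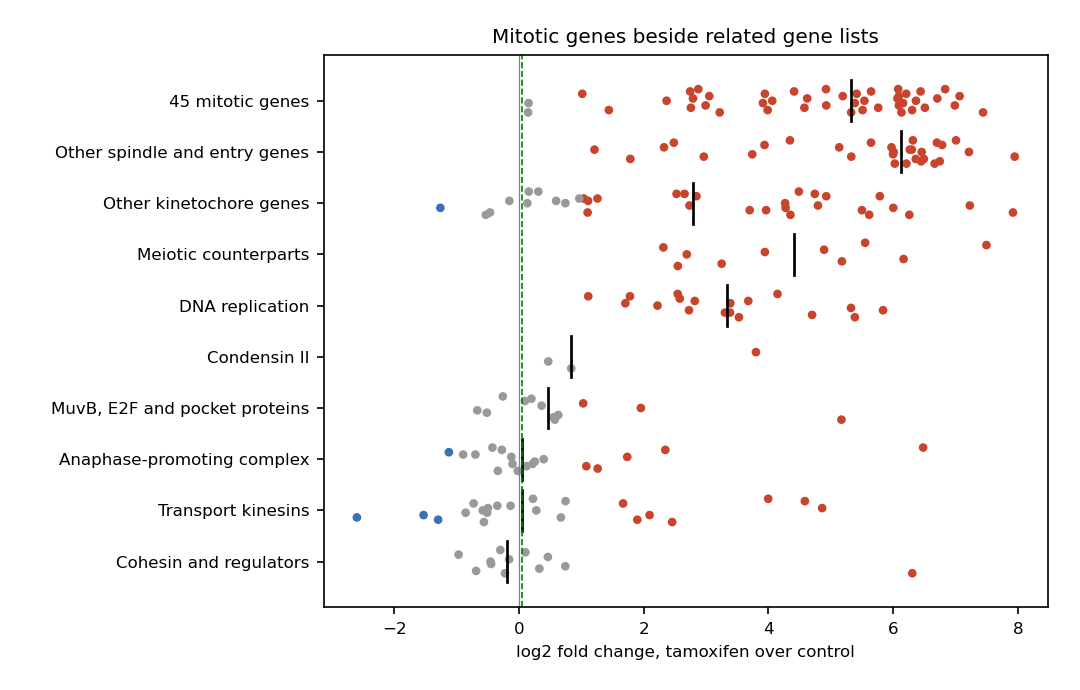
Log2 fold change of tamoxifen over control (x axis) for the 45 mitotic genes and 9 related gene lists (rows), 1 point per gene, red if called higher, blue if called lower and gray if not called; black bars are medians and the green dashed line is the median of all genes tested (0.05). The mitotic genes (median 5.33) and the other spindle genes (6.12) lie far to the right, and cohesin (-0.19) and the transport kinesins (0.04) center near 0.

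The tamoxifen libraries differed from each other in some of the cell type markers. Tamoxifen library 2 had a median of 0.932 times the value of library 1 over the 45 members, within a range of 0.827 to 1.09, against a median of 0.945 over all genes tested. Of the 45, 40 were higher in library 1. In the same ratio, endothelial markers had a median of 0.496, pluripotency markers 0.769, neutrophil-precursor markers 0.717, erythroblast markers 0.699, B-cell precursor markers 0.715, neural progenitor markers 1.80 and pericyte and smooth muscle markers 1.97. Fibroblast (0.897), lymphocyte and leukocyte (0.894) and microglia (0.884) markers lay nearer to the ratio of the members. In the control pair the same ratio was 1.08 over the members, 1.04 for endothelial, 1.81 for pluripotency and 0.663 for neutrophil-precursor markers. There, erythroblast markers had 1.74, neural progenitor 1.21, fibroblast 1.46, microglia 1.87, and lymphocyte and leukocyte 1.07. Pericyte and smooth muscle markers had 1.86 in the control pair, so their shift was not particular to the tamoxifen pair. In the other marker lists, genes with both tamoxifen libraries higher were counted. Over all genes tested that share was 43.1%, and 39.2% had both lower. The counts were erythroblast 9 of 10, B-cell precursor 7 of 8 in the table, neural progenitor 9 of 10 and fibroblast 7 of 8. Microglia had 6 of 8, and lymphocyte and leukocyte 6 of 6. Rhag, Igll1, Dntt, Rag1, Rag2, Pax5, Cd3e, Cd2 and Trac passed the filter only through the tamoxifen libraries, and Cd3g was not tested. For the B-cell precursor, lymphocyte and leukocyte lists, the counts are therefore no support for a difference. Pericyte and smooth muscle markers, at 3 of 9, were not above the share of all genes. Summed levels were 128947 to 200200 normalized counts in the tamoxifen against 77750 to 99960 in the control libraries for erythroblast markers, 5857 to 7063 against 8114 to 8162 for B-cell precursors and 27897 to 37616 against 34648 to 36990 for neural progenitors. They were 171485 to 242176 against 327867 to 344758 for fibroblasts, 29280 to 59648 against 24365 to 42321 for pericytes and smooth muscle, 4577 to 5218 against 2485 to 3820 for microglia, and 1498 to 1952 against 97.3 to 121 for lymphocytes and leukocytes. In 4 of these lists 1 abundant gene ran against the rest and was lower after tamoxifen, namely Tfrc, Ebf1, Nes and Fn1, which endothelial or stromal cells also express. Whether cells of the listed kinds were in the libraries, and their part in the mitotic values, was likewise not tested. Defining markers at or under the floor in both control libraries were Utf1 for pluripotency, Prtn3, Ctsg and Fcnb for neutrophil precursors, Rhag for erythroblasts, Igll1, Dntt, Rag1 and Rag2 for B-cell precursors, and Cd3e and Cd3g for T cells.

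**Figure D4:**
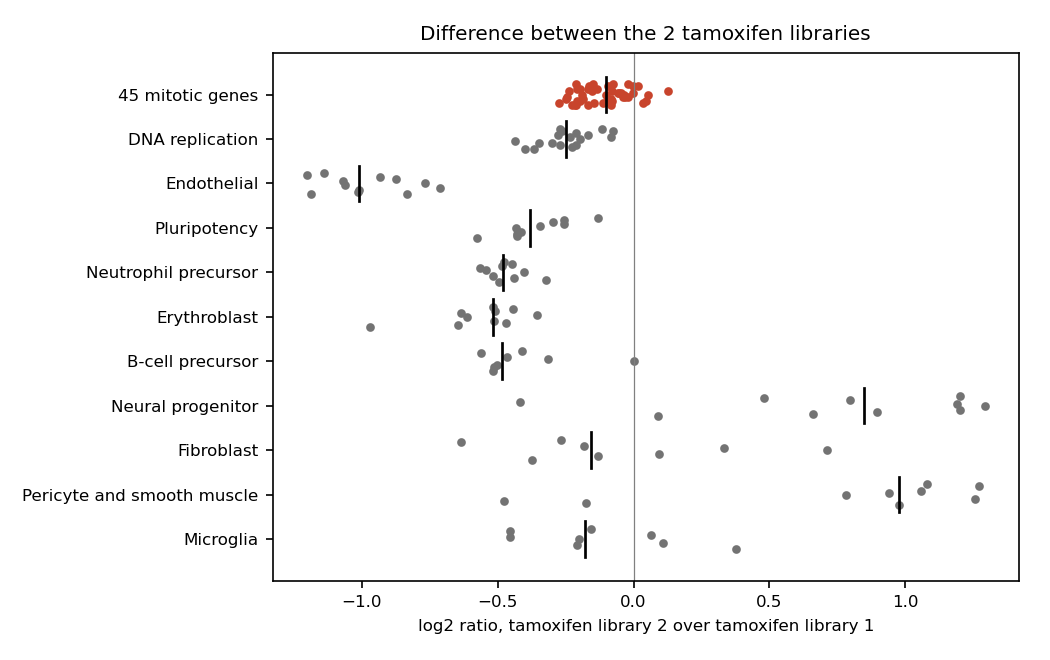
Log2 ratio of tamoxifen library 2 over tamoxifen library 1 (x axis, 1 normalized count added) for the 45 mitotic genes (red) and for replication and cell type marker lists (gray), 1 point per gene, with black bars at the medians. The mitotic genes cluster near 0 (0.827 to 1.09 as a ratio), while endothelial markers lie to the left (median ratio 0.496) and neural progenitor and pericyte markers to the right (1.80 and 1.97).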

How the data were processed

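The table held 1 column of normalized counts for each of 4 libraries (control and tamoxifen, 2 each). The deposited values are a signal in gene counts divided by size factors: the authors aligned reads to GRCm39 with STAR 2.7.10a, counted them and normalized them with DESeq2 1.36.0. The kit was stranded, and the strand setting of the counting was not given in the sources used here. Each value was a whole multiple of 1 read's worth (100% of values within 0.01 of a whole read), so reads were recovered. Genes with a mean of at least 10 were tested with limma 3.58.1 (trend) on log2(normalized count + 1) with Benjamini-Hochberg adjustment over 20485 genes, so that fold changes of low genes are understated. Alternatives were edgeR 4.0.16 and DESeq2 1.42.0 run on those reads, other pseudocounts, filters, scalings, a replicate block, and leaving out each library. Single values were compared by exact permutation over libraries.

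Exon positions, transcript lengths, overlaps and promoters came from GENCODE M39 on GRCm39, and near-identical copies from blastn 2.17.0. All 45 members may be named. Of each other list, the 3 genes with the highest mean and any called against the majority are named. The members and lists were chosen with earlier results of these data known, and no set test was run. Because the libraries were pools, the spread seen is that between pools. limma moves each gene's variance toward a trend fitted over all genes. Its standard errors and p-values thus rest in part on other genes, and not only on the gene's own 4 libraries. Reads on genes ranged from 35387438 to 49799321, and 3 reads limit detection, for counting error only.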

Additional observations from a re-analysis of the deposited data

How the results depend on the processing

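Members called stayed at 43 under each alternative except without control library 1 and without tamoxifen library 1 (42 each, Ncaph lost). Over all alternatives, 334 of 366 counts, medians and ratios kept within their limit, and of 1064 comparisons of single named genes 1030 kept direction and call, 15 lost their call, 7 gained it and 12 changed sign. All genes called higher moved from 5867 to 3540 with a filter at 100, under which 13668 genes were tested instead of 20485. All genes called lower moved from 3284 to 1838 with equal totals, 5503 with quantile normalization and 5228 on adjusted p alone. Leaving out 1 library gave 2553 to 6163 higher and 1594 to 3537 lower. Higher calls were 64.1% of calls, 79.7% with equal totals and 45.7% with quantile normalization, which moved the median of all genes to 0.52 and -0.22. Members exceeded that median by 5.28, 5.23 and 5.02. With equal totals, on adjusted p alone and with quantile normalization, called genes were 2, 5 and 2 for cohesin (main 1). With equal totals and on adjusted p alone they were 2 and 3 for condensin II (main 1) and 6 and 7 for MuvB (main 3). Transport kinesins had 18 (main 10) on adjusted p alone, and the meiotic list 4 (main 10) with a filter at 100, since fewer genes were tested. Leaving out 1 library gave 15 to 26 for other kinetochore genes, 1 to 2 for cohesin, 2 to 5 for the anaphase-promoting complex, 5 to 10 for the meiotic list and 5.09 to 5.41 for the members' median, which was 5.75 with equal totals and 4.80 with quantile normalization. The difference in summed level (3.56) was 4.03 and 3.73 in the same order, and 3.35 without the 5 most abundant members. With quantile normalization Bub1 over Bub3 changed by 6.29, Aurkb over Incenp by 2.996 and mitotic over transport kinesins by 4.24. Signs turned with equal totals for Mgp (0.079), Smc1a (0.24), Anapc5 (0.044), Anapc1 (0.45) and Kif1b (0.34), and with quantile normalization for Smc1a (0.33), Anapc5 (0.21), Anapc1 (0.54) and Kif1b (0.51). Leaving out 1 library gave -0.058 to 0.020 for Anapc1 and -0.41 to 0.14 for Kif1b. Except where stated, the cause was not tested. Same-numbered libraries did not deviate together (r = 0.03), so the numbers were not taken as pairs; a replicate block gave 43 members, 6064 genes higher and 3461 lower.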
